A study of Mus musculus with 12 samples.

Results

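The major histocompatibility complex (MHC) class II genes present peptides from outside the cell to helper T cells, and the 10 genes of this pathway were followed through every library of the series. The members were taken by symbol, as Cd74 and the class II genes of the H2 locus together with Ciita, and all 10 were among the 22609 genes listed in each file. The libraries came from trigeminal ganglia (TG) and from dorsal root ganglia (DRG) of naive C57BL mice (C57BL/6J in the study's methods), which the labels put at 3 to 4 months of age while the methods give a younger range, and from cell fractions enriched for sensory neurons on a Percoll density gradient. Each ganglion gave 3 libraries from females and 3 from males, and the study's methods describe the females as being in estrus. The titles mark every library as Wt, for wild type, and the labels name no transgene or treatment in any group. Whether animals were pooled or whether TG and DRG libraries share animals is not stated in the sources used here. The design asked how females and males differ in each ganglion and how the ganglia differ.

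Class II molecules are pairs of an alpha and a beta chain. In mice of the C57BL background the working pair is I-A, made from H2-Aa and H2-Ab1, while H2-Eb1 is made without its alpha partner because the H2-Ea gene is inactive. The invariant chain, encoded by Cd74, holds newly made pairs and fills the groove until the H2-DM pair (H2-DMa with H2-DMb1 or H2-DMb2) exchanges its last fragment for a peptide. The H2-O pair (H2-Oa and H2-Ob) restrains H2-DM, chiefly in B cells. Ciita is a transactivator of class II genes, and it is brought to their promoters by factors that sit on the X and Y boxes. In nerve tissue these genes are mainly known from macrophages and other antigen presenting cells rather than from neurons.

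The promoter letters are shown because some of the members share an arrangement of them. The RefSeq table of build GRCm38.p6, which holds 250 bases before to 50 bases after a start site, had entries for H2-Oa, H2-DMa, H2-DMb2, H2-DMb1, H2-Ob, H2-Aa and H2-Eb1 and none for H2-Ab1, Cd74 and Ciita. Each window was searched on both strands for ATGATGC, the end of an X box, and for GATTGG, a Y box holding the CCAAT letters in reverse, and these letters were chosen with the sequences in view. The stretches around the matches follow with the motifs in capitals, each on the coding strand.
H2-Eb1, chr17:34305771-34305822, plus strand: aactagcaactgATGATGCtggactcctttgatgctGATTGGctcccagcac
H2-Ob, chr17:34238813-34238862, plus strand: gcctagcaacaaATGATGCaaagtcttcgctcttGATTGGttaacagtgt
H2-DMb1, chr17:34153092-34153144, plus strand: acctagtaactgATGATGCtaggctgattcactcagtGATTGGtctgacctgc
H2-DMb2, chr17:34145121-34145173, plus strand: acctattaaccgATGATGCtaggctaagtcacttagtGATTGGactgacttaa
H2-Aa, chr17:34287857-34287912, minus strand: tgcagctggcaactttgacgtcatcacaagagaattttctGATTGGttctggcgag
H2-Oa, chr17:34092295-34092350, plus strand: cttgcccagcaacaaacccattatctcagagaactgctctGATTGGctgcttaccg

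In H2-Eb1, H2-Ob, H2-DMb1 and H2-DMb2 both motifs stood on the coding strand, with 17, 15, 18 and 18 bases between them. Among the 32851 promoter windows, 2.46% held the X letters and 16.1% the Y letters, and 0.0548% held X before Y within 40 bases on the same strand. The windows with that arrangement belonged to 16 genes, of which 4 were members. H2-Aa and H2-Oa matched only the Y letters, at -49 and -44 from the start site. Of the 2 start sites listed for H2-DMa, the first had neither and the second had the Y letters at -199. A match is a description of the letters and was not tested as a binding site, and the 4 genes that share the arrangement were among both the high and the very low members in these libraries.

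In build mm9, the build of the files, 8 of the 10 members lie on chromosome 17 between 34229285, where H2-Oa starts, and 34453144, where H2-Eb1 ends. Ciita lies on chromosome 16 at 10480237 to 10527657, and Cd74 lies on chromosome 18 at 60963502 to 60972300. H2-Aa (34406276 to 34424772, minus strand) and H2-Ab1 (34400154 to 34406363, plus strand) converge and share 17 exon bases. H2-DMb1 (34290017 to 34297168) and H2-DMb2 (34280252 to 34288498) are neighbouring copies, and of the 50-base windows of H2-DMb1 exons 27.1% were also found in H2-DMb2. Reads that align to several places were not counted, so the values of this pair are uncertain.

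Reads in genes ran from 7511765 to 15396090 per library, and the 10 members together held between 0.0263% (female DRG 3) and 0.102% (female TG 2) of them. The 95% Wilson intervals of these shares were 0.0254% to 0.0272% for female DRG 3, and they cover counting error only. The sensory neuron markers were present, as all 8 had counts in every library and summed to between 4680 and 11400 CPM, the reads of a gene scaled to a common library total. Markers of satellite glia, 5 genes, summed to between 2530 and 6880 CPM, so the fractions also held RNA of non-neuronal cells. In such bulk libraries fewer cells of a type and less RNA per cell cannot be told apart.

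Cd74, H2-Aa, H2-Ab1 and H2-Eb1 carried nearly all of the class II reads, in neuron-enriched fractions of both ganglia and both sexes. Divided by exon length in kilobases (RPKM), female TG held 149 ± 53.9 of Cd74, 134 ± 12.1 of H2-Aa, 122 ± 17.8 of H2-Eb1 and 86.8 ± 18.9 of H2-Ab1 (SD, n = 3). Male TG held 107 ± 25.9 RPKM of H2-Aa, 96.4 ± 29.7 of H2-Eb1, 59.8 ± 25.5 of Cd74 and 51.4 ± 13.7 of H2-Ab1. By RPKM Cd74 was thus first by its mean in female TG and behind H2-Aa and H2-Eb1 in male TG. In these units H2-Ab1 in female TG and Cd74 in male TG each lay below H2-Eb1 by more than either SD. The other neighbours in both orders differed by less than their spread. The length joined all annotated exons, 1987 bases for H2-Aa and 1410 for Cd74, and the orders depend on it. Before division by length, H2-Aa led in female TG, at 267 ± 24.1 CPM against 211 ± 76.1 for Cd74. In the same group H2-Ab1 and H2-Eb1 were nearly equal, at 143 ± 31.1 and 145 ± 21.2 CPM. In male TG Cd74 and H2-Eb1 stood at 84.4 ± 36 and 115 ± 35.3 CPM, a gap below either SD. Female DRG held 98.2 ± 41.7 RPKM of H2-Eb1, 92.8 ± 42.4 of H2-Aa, 91.7 ± 37.4 of Cd74 and 54.6 ± 24.6 of H2-Ab1. In male DRG the means were 82.9 ± 28 for H2-Aa, 62.8 ± 20.5 for H2-Eb1, 42.7 ± 9.75 for Cd74 and 37 ± 13.8 for H2-Ab1. The class I light chain B2m, for scale, had group means of 357 to 558 RPKM.

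The H2-DM genes were present at a lower level. H2-DMa had group means of 4.57 to 8.25 RPKM and H2-DMb1 of 5.1 to 8.37 RPKM, with 50 to 191 and 59 to 209 counts per library. H2-DMb2 had 15 counts in female DRG 3, 12 in male TG 1, and 2 or fewer in each other library.

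Ciita and the H2-O pair were close to the limit of detection, which at 3 counts was 0.195 to 0.399 CPM. Ciita had 33, 66 and 22 counts in female TG 1 to 3, then 0, 14 and 45 in male TG, 0, 38 and 11 in female DRG and 19, 0 and 23 in male DRG. It was at 0 in 3 libraries, all of which had at least 480 reads of Cd74. H2-Oa had 12 counts in female DRG 2, 10 in male DRG 3, 7 in male TG 2 and at most 2 elsewhere. H2-Ob had 0, 0 and 2 counts in female DRG and 9, 18 and 33 in male DRG. These groups did not overlap, with males higher. Among all genes tested in DRG 17.5% had no overlap in either direction. H2-Ob was not one of those genes, as a filter on low counts removed it from the DRG comparison. In TG the H2-Ob counts were 12, 22 and 0 in females and 22, 31 and 0 in males, and the sexes overlapped. The inactive H2-Ea gene, listed as H2-Ea-ps, had 0 counts in all 12 libraries, and H2-Eb2 had at most 13.

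**Figure D1:**
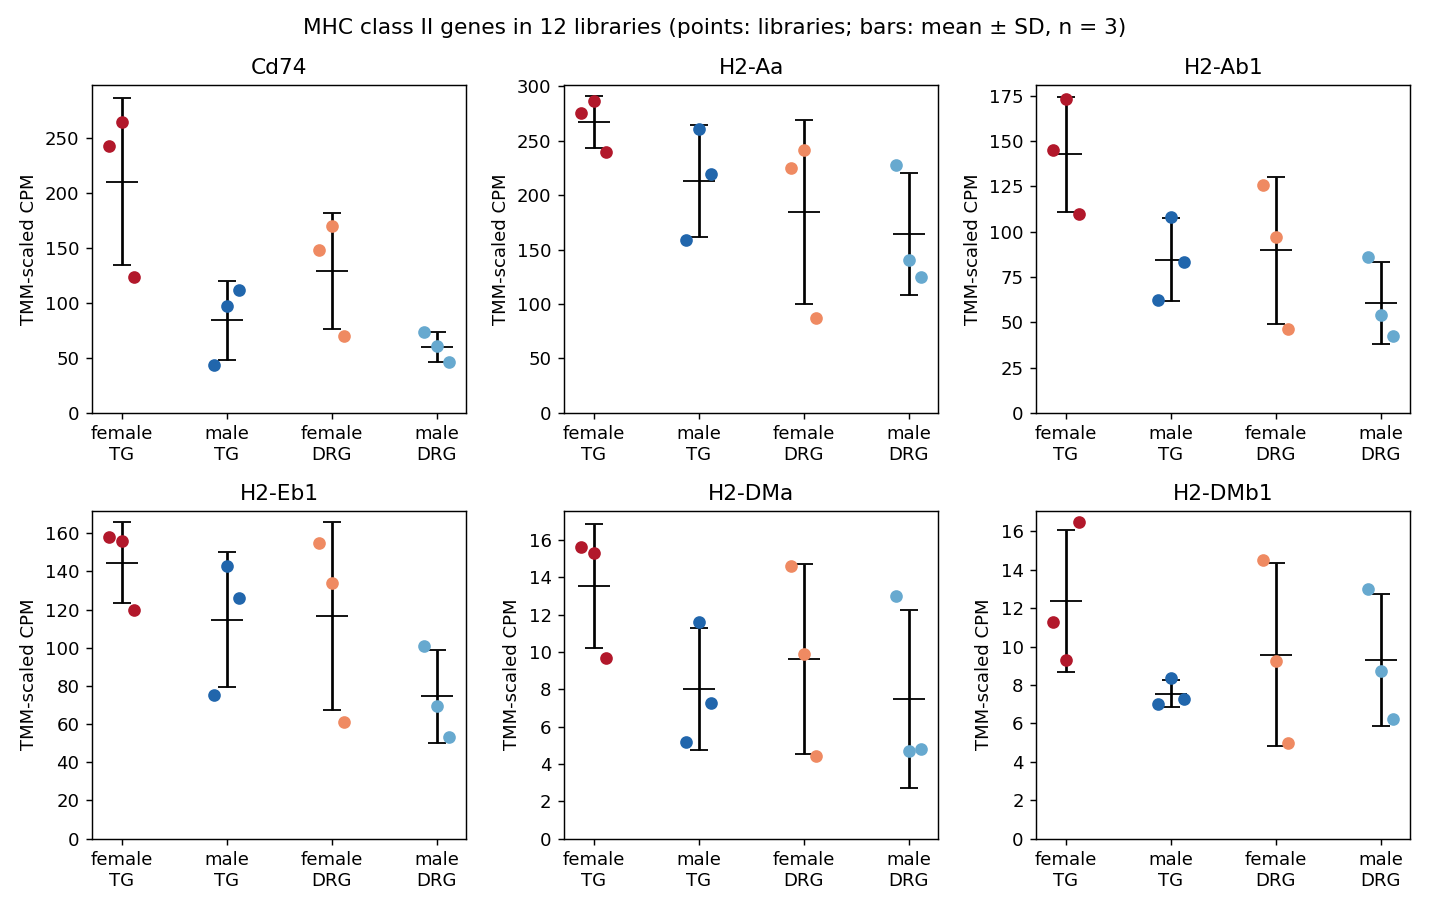
Level of 6 class II genes in TMM-scaled CPM (vertical axes, each from 0) in female and male TG and DRG, with 1 point per library and bars for the mean ± SD of 3 libraries. Cd74 in TG lay at 124 to 265 CPM in females and 43.7 to 112 CPM in males with no overlap, whereas the H2-Aa ranges overlapped in both ganglia.

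Cd74 was higher in females than in males in TG, and the genes of the class II chains had smaller differences. Female TG 1 to 3 held 243, 265 and 124 CPM of Cd74 and male TG 1 to 3 held 43.7, 97.3 and 112 CPM. Every female library was above every male library, with the lowest female and the highest male close together. The means were 211 ± 76.1 and 84.4 ± 36 CPM (SD, n = 3 each), and their log2 fold change was 1.38 with a standard error (SE) of 0.38. In edgeR's quasi-likelihood test the unadjusted p was 0.00412 and the Benjamini-Hochberg adjusted p over all 14009 genes was 0.154. Cd74 was one of the genes that the study picked from these same libraries, so the difference is not independent evidence. The study also reported more Cd74 in females by quantitative RT-PCR and in sequenced DRG neurons labelled from paw and thigh, neither examined here. Without female TG 3, the lowest of the female libraries, the log2 fold change was 1.59 (adjusted p 0.00905 in edgeR), and Cd74 and H2-Ab1, 2 members, then passed by adjusted p among 3394 genes in all, against 5 genes with all libraries. Without male TG 2 there were 3 members, among 867 genes in all, that met the fold change and p criteria given below.

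H2-Ab1, the I-A beta chain, had 145, 173 and 110 CPM in female TG and 62.5, 108 and 83.4 CPM in male TG, again without overlap. Its log2 fold change was 0.81 (SE 0.27, unadjusted p 0.0126, adjusted p 0.169 in edgeR), and the unadjusted p rose to 0.0763 without female TG 2 and to 0.0669 without male TG 1. H2-Aa, the I-A alpha chain, had 275, 286 and 240 CPM in female TG against 159, 261 and 219 CPM in male TG, and the ranges overlapped. Its log2 fold change was 0.38 (SE 0.24, unadjusted p 0.142 in edgeR), so the chains of 1 heterodimer had different nominal calls, and the difference between the chains was not tested. H2-Eb1 had 158, 156 and 120 CPM in females and 75.1, 143 and 126 CPM in males, with overlap and an unadjusted p of 0.185 in edgeR.

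H2-DMb1 did not overlap in TG, at 9.32 to 16.5 CPM in females and 7.01 to 8.35 CPM in males, and its unadjusted p in edgeR was 0.0657. H2-DMa overlapped, at 9.69 to 15.6 and 5.19 to 11.6 CPM. Ciita and H2-Ob had log2 fold changes of 0.94 and -0.49 with unadjusted p of 0.471 and 0.769 in edgeR. H2-DMb2 and H2-Oa were removed by the filter on low counts in every comparison.

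Of the 8 members tested in TG, 1 (Cd74) met criteria of a fold change above 2, an unadjusted p under 0.05 and a mean above 1 CPM in the higher sex, against 7.41% of all genes, or 5.15% counting only those higher in females. By unadjusted p 2 members were higher in females, against 10.9% of all genes, and by adjusted p 0 members passed, against 0.0357%. DESeq2 gave 1 member by adjusted p among 817 genes in all. Females lay above males without overlap in 3 members, against 11.2% of all genes. The median log2 fold change was 0.78 over the 8 members and 0.05 over all genes. Counts of 1 or 2 among 8 members are too small to set them apart from these background shares.

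In DRG the same gene, Cd74, was again higher in females. No chain gene had an unadjusted p under 0.05 in the edgeR fit of all 6 DRG libraries with TMM scaling and no block or correction. Under some of the alternatives given below, chain genes did. Female DRG 1 to 3 held 148, 170 and 69.8 CPM and male DRG 1 to 3 held 73.5, 61 and 46.1 CPM, so female DRG 3 fell within the male range. The means were 129 ± 52.7 and 60.2 ± 13.7 CPM (SD, n = 3 each), and the log2 fold change was 1.12 (SE 0.35). In edgeR the p was 0.00743 before and 0.309 after adjustment over 13963 genes. The log2 fold change was 0.87 without female DRG 2 and 0.97 without male DRG 3, and in these fits, as in that without female DRG 1, no member had a fold change above 2 with an unadjusted p under 0.05.

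H2-Aa had 225, 241 and 87.5 CPM in female DRG and 228, 140 and 125 CPM in male DRG. Female DRG 3 was the lowest of the 6 and male DRG 1 was among the highest, and the log2 fold change was 0.18 (unadjusted p 0.652 in edgeR). H2-Ab1 had 126, 97.2 and 46.1 CPM against 86.2, 53.8 and 42.4 CPM, a log2 difference of 0.58 (unadjusted p 0.161 in edgeR). H2-Eb1 had 155, 134 and 60.9 CPM against 101, 69.4 and 53.3 CPM, a log2 difference of 0.66 (unadjusted p 0.0979 in edgeR). With the replicate number as a block the H2-Eb1 difference was 0.59 and its unadjusted p was 0.0326. In all 3 genes, as in Cd74, H2-DMa and H2-DMb1, female DRG 3 was the lowest female library. The log2 fold changes of H2-DMa, H2-DMb1 and Ciita were 0.38, 0.06 and 0.25 with unadjusted p of 0.571, 0.922 and 0.9 in edgeR.

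Of the 7 members tested in DRG, Cd74 alone met the criteria, against 4.97% of all genes and 2.01% in the female direction. No member passed the adjusted threshold in edgeR, against 0.0358% of all genes, 1 was higher in females by unadjusted p against 3.85%, and DESeq2 gave 1 by adjusted p among 348 genes in all. No member had all female libraries above all male libraries, against 7.85% of all genes. The median log2 fold change of the 7 members was 0.38 and that of all genes was 0.02.

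Averaged over both ganglia in a model of all 12 libraries, Cd74 had a log2 fold change of 1.21 (SE 0.27) and an adjusted p of 0.0222 in edgeR. It was the 1 member of 8 to pass, against 7.88% of all genes, and the 1 to meet the criteria of fold and p, against 5.05%. H2-Ab1 had a log2 fold change of 0.66 (SE 0.25) (unadjusted p 0.0162, adjusted p 0.0999). By unadjusted p 2 members were higher in females, against 11.5% of all genes. H2-Eb1 stood at 0.49, H2-Aa at 0.24, H2-DMa at 0.56, H2-DMb1 at 0.38 and Ciita at 0.58, none of them past an unadjusted p of 0.05. H2-Ob had the opposite sign at -2.58 (unadjusted p 0.0813). This model treats TG and DRG libraries as separate samples. When the counts of both ganglia were summed within each sex and number, the log2 fold change of Cd74 was 1.30 and its adjusted p 0.14. Left out one at a time, female DRG 2, female TG 1, female TG 2, male DRG 1, male DRG 2, male TG 1 and male TG 2 each took the adjusted p above the threshold, to between 0.0563 and 0.0819, with log2 fold changes of 1.06 to 1.30.

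**Figure D2:**
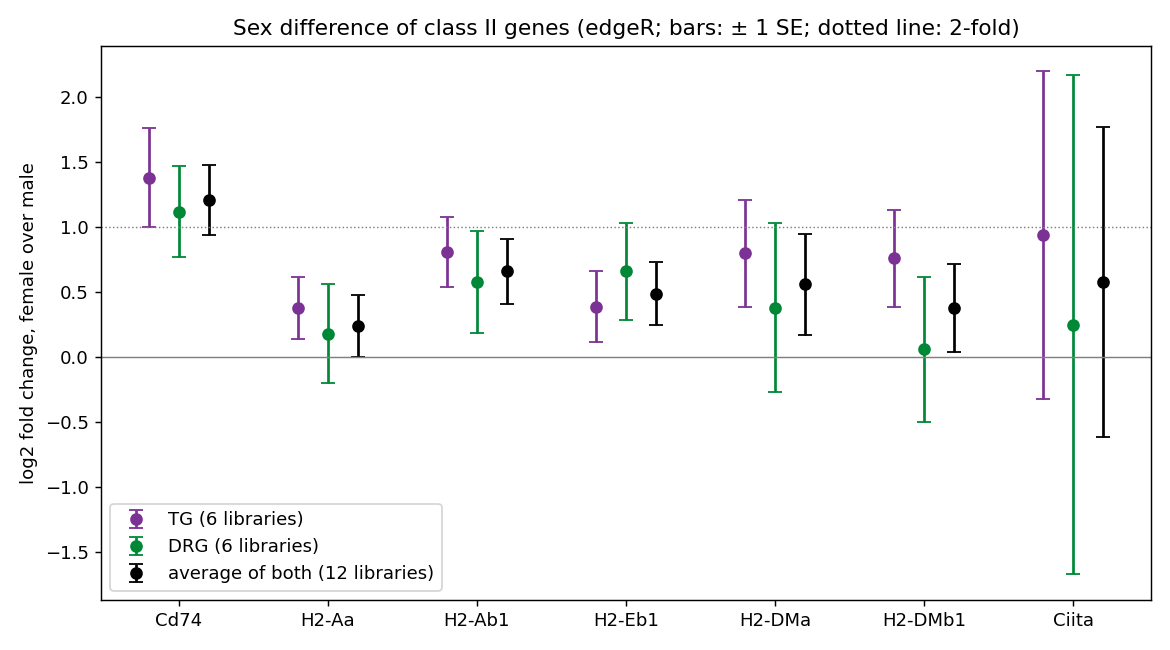
Log2 fold change of females over males (vertical axis) for 7 members, from edgeR fits of TG (6 libraries), DRG (6 libraries) and the average of both (12 libraries), with bars of ± 1 SE. Cd74 lies above the dotted 2-fold line at 1.38, 1.12 and 1.21, the chain genes lie between 0.18 and 0.81, and the bars of Ciita span 0 in each fit.

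The sex effect of TG was tested against that of DRG itself. For Cd74 the difference of log2 fold changes, TG minus DRG, was 0.22 (SE 0.54, unadjusted p 0.69 in edgeR), and no member had an adjusted p under 1. Among all genes 0% passed by adjusted p and 1.97% by unadjusted p, and 0 members were under 0.05 unadjusted. The SE leaves room for a sizeable difference in either direction.

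Every tested member had a higher estimate in TG than in DRG, except that H2-DMb1 (log2 fold change 0.04) stood at 0 with DESeq2's size factors, and none passed the adjusted threshold. Cd74 averaged 148 ± 87.3 CPM over the 6 TG libraries and 94.8 ± 51.2 CPM over the 6 DRG libraries (SD), a log2 fold change of 0.60 (unadjusted p 0.0399, adjusted p 0.531 in edgeR). H2-Ab1 differed by 0.57 (unadjusted p 0.0329, adjusted p 0.487), H2-Eb1 by 0.46 and H2-Aa by 0.45. By unadjusted p 2 of 8 members were higher in TG, against 4.65% of all genes, while 0 of 8 passed by adjusted p, against 0.964%. The median log2 fold change was 0.52 for the members and -0.01 for all genes. The direction was not particular to the members. All 12 macrophage markers described below were also higher in TG, with a median of 0.44, and 2 had an unadjusted p under 0.05. Of 16 MHC class I genes 13 were higher in TG, with a median of 0.18. Of 5 fibroblast markers 1 was higher in TG, with a median of -0.25. Ctss, the protease that trims the invariant chain in antigen presenting cells, differed in the same direction by 0.89 (unadjusted p 0.00331, adjusted p 0.16), at 63.3 ± 10.6 and 56.8 ± 22.8 CPM in female and male TG and 34.4 ± 13 and 30.5 ± 11.3 CPM in female and male DRG.

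Within libraries, where neither library size nor scaling enters, reads of Cd74 were also set against those of the class II chains. For every 100 reads of H2-Aa, the 6 female libraries had 51.6 to 92.5 reads of Cd74 (median 75.2) and the 6 male libraries 27.5 to 51.2 (median 37). The ranges did not overlap, although the lowest female library, female TG 3, and the highest male library, male TG 3, were nearly equal. For every 100 reads of H2-Eb1 there were 95.3 to 170 reads of Cd74 in females and 58.2 to 89.1 in males. Against H2-Ab1 the ranges overlapped, at 112 to 175 and 69.9 to 134. Within the I-A pair, females had 40.3 to 60.2 reads of H2-Ab1 per 100 of H2-Aa and males 33.8 to 41.2, with a narrow overlap. These ratios rest on the same reads as the fold changes and are given without a test. They carry no correction for GC content or length, with which the TG log2 fold changes of Cd74 and H2-Aa went from 1.38 and 0.38 to 1.16 and 0.71.

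**Figure D3:**
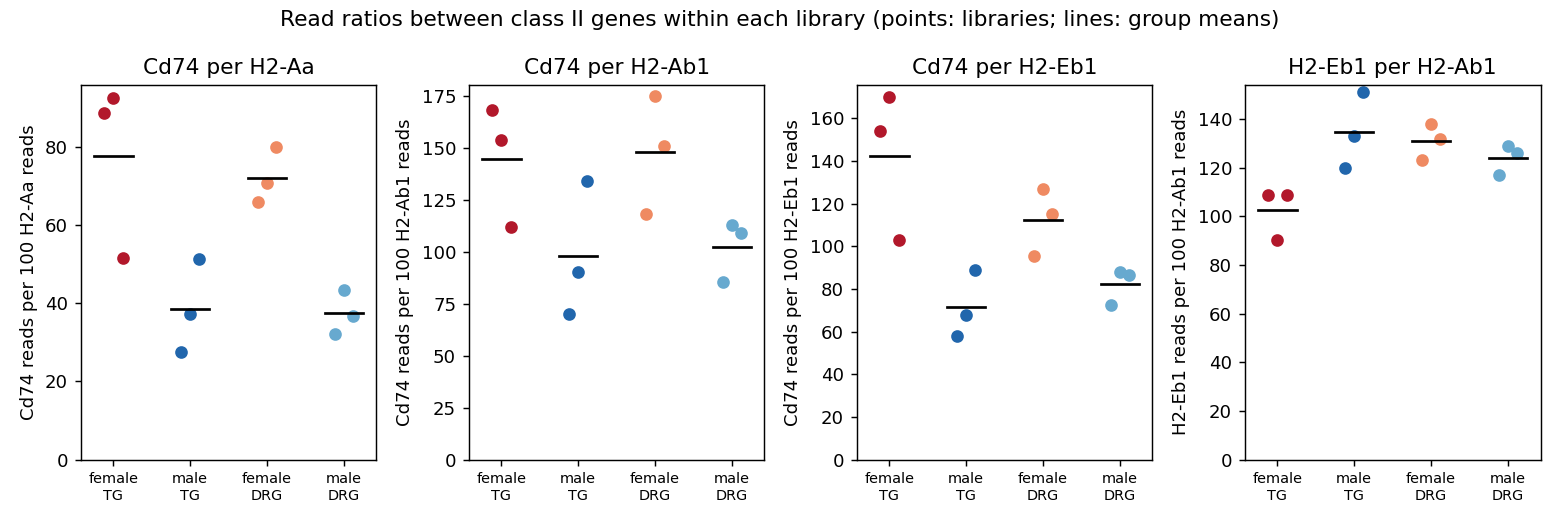
Reads of one class II gene per 100 reads of another in each library (vertical axes, from 0), by sex and ganglion, with lines at the group means. Cd74 per H2-Aa runs from 51.6 to 92.5 in the 6 female libraries and from 27.5 to 51.2 in the 6 male libraries, and H2-Eb1 per H2-Ab1 overlaps between the sexes.

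Across the 12 libraries the abundant members moved together. Cd74 correlated with H2-Ab1 at Pearson's r of 0.89 (Spearman's rho 0.88, permutation p 0.00012, adjusted 0.00108 over 9 pairs) and with H2-Eb1 at 0.87 (rho 0.88, permutation p 0.00028, adjusted 0.00126). The values for H2-DMa were r 0.81 and rho 0.79 (permutation p 0.00229, adjusted 0.00687), and those for H2-Aa were r 0.74 and rho 0.82 (permutation p 0.00487, adjusted 0.011). Without the 2 libraries farthest from the median of Cd74, female TG 2 and male TG 1, these r were 0.88, 0.88, 0.75 and 0.73. After removal of the group means they were 0.83, 0.89, 0.76 and 0.82, so the relation did not come from the group means alone. The share of all genes that correlated as closely with Cd74 was not computed, so these r cannot be called particular to the members.

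The remaining pairs did not pass. Cd74 had r of 0.49 with H2-DMb1, 0.52 with Ciita, -0.34 with H2-Ob, -0.10 with H2-Oa and -0.37 with H2-DMb2, of which the last 4 rest on small counts. The corresponding rho were 0.63, 0.59, -0.45, -0.05 and -0.27, and the adjusted permutation p were 0.158, 0.149, 0.312, 0.762 and 0.312 for r. Within TG, 6 libraries, r with H2-Ab1 was 0.95 (exact permutation p 0.00694), and within DRG it was 0.87 (exact permutation p 0.0222). With H2-Aa r was 0.90 within TG and 0.69 within DRG (exact permutation p 0.0111 and 0.163). The closest pair in the set was H2-Ab1 with H2-Eb1 (r 0.96). Whether the libraries of the ganglia share animals is not known, so the 12 points may not all be independent.

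By likeness to the mean log2 CPM of Cd74, H2-Aa, H2-Ab1 and H2-Eb1 over the 12 libraries, the leading genes outside the set were Pex6 (r 0.940), Nr1h2 (0.939), D17Wsu92e (0.938), Ap1g2 (0.936), Nol6 (0.935), Cdr2l (0.932), Lphn1 (0.931), Cacna1a (0.928), Mapk8ip1 (0.928) and C1qa (0.926). C1qa, a complement chain made by macrophages, was the only macrophage marker among these 10 of 13909 genes. Cx3cr1 stood at rank 75 (r 0.884) and Csf1r at rank 288 (r 0.831). The endothelial marker Cldn5, at r 0.751, stood at rank 747. The median r over all genes was -0.048, and 39 genes were above 0.9.

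The machinery around the class II pathway did not move as a block. Of the 9 loading and turnover genes tested, 0 were higher and 2 lower in female TG by unadjusted p, and 0 higher and 3 lower in female DRG, against 9.79% of all genes lower in TG and 8.0% in DRG. Those in TG were the lysosomal proteases Ctsl (log2 fold change -0.83, unadjusted p 0.0218 in edgeR) and Ctsb (-0.57, 0.047), and in DRG Lgmn (-0.66, 0.0302) joined Ctsl (-0.86, 0.0029) and Ctsb (-0.71, 0.00877). In the average over ganglia Ctsl and Ctsb fell at adjusted p of 0.0242 and 0.0389, the opposite direction to Cd74. Their medians were 0.04 in TG and -0.42 in DRG. Of the genes for the complex on the class II promoters and the signals upstream, 15 were tested in TG and 14 in DRG. In female TG 1 was higher by unadjusted p, Rfx5, a subunit of the X box factor (0.84, unadjusted p 0.0446, adjusted p 0.233 in edgeR). Creb1 alone was lower (-0.58, 0.0188, adjusted p 0.183). Over all genes 10.9% were higher and 9.79% lower in female TG by that rule. None passed in DRG, against 3.85% higher and 8.0% lower, and the medians were 0.19 in TG and 0.11 in DRG.

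Genes of CD74 as a surface receptor and of the partners of antigen presentation gave few calls. Of 5 tested ligands and partners of CD74, 0 passed in TG by unadjusted p and 2 were lower in female DRG, namely Mif (-1.02, unadjusted p 0.0125 in edgeR), the ligand of CD74, and its relative Ddt (-1.12, 0.0138). In the average over ganglia Mif was lower in females with an adjusted p of 0.0469, at 42.1 ± 11.6 and 86.6 ± 32.4 CPM in female and male DRG and 36 ± 14 and 63.6 ± 26.9 CPM in female and male TG. The medians of this list were -0.13 in TG and -0.26 in DRG. Over all genes 8.0% were lower in female DRG by unadjusted p. Of the costimulation and recognition genes, 7 in TG and 6 in DRG were tested and none passed in either. Cd86 and Cd80, the ligands that engage T cells, had group means of at most 5.75 and 1.57 CPM.

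MHC class I genes, which present peptides from inside the cell, offered a parallel within the same libraries. Of the 16 tested in TG, 2 were higher and 1 lower in females by unadjusted p, with Tapbp at 1.14 (unadjusted p 0.0127), Tap2 at 1.21 (0.0177) and Canx at -0.60 (0.0401) in edgeR. In DRG 0 of 16 passed in either direction. The medians of the list were 0.22 and 0.10. Among all genes 10.9% were higher and 9.79% lower in female TG by unadjusted p, and 3.85% and 8.0% in female DRG. Tapbp and Tap2, genes of the loading and the transport of class I peptides, lie in the same H2 region as the class II chains. In the average over ganglia their adjusted p in edgeR were 0.056 and 0.0624. The class I heavy chain H2-K1 had 175 ± 62.4 and 158 ± 28.7 CPM in female and male TG, with no call by sex.

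Several markers of macrophages were, like Cd74, higher in females. All 12 had counts in every library except 1 female DRG library, where 11 did, and their summed level was 381 to 667 CPM in female TG, 235 to 400 in male TG, 209 to 517 in female DRG and 230 to 302 in male DRG. In TG all 12 had positive log2 fold changes, 4 with an unadjusted p under 0.05, with a median of 0.63. Of all genes tested in TG, 10.9% were higher in females with an unadjusted p under 0.05. Csf1r, the growth factor receptor that defines macrophages, was at 91.1 ± 29.2 CPM in female and 37.1 ± 18.7 CPM in male TG (log2 fold change 1.35, unadjusted p 0.00713 in edgeR), and C1qa was at 53.1 ± 19.4 and 19.8 ± 9.12 CPM (1.48, 0.00412). In DRG 10 of 12 were positive and 2 passed, Csf1r (1.26, 0.00734) and Cx3cr1 (1.51, 0.00744), with a median of 0.48. The share of all genes higher in females by unadjusted p was 3.85% there. In the average over ganglia Csf1r, Cx3cr1 and C1qa passed at adjusted p of 0.023, 0.0332 and 0.0385, against 7.88% of all genes. C1qc was also higher in female TG (1.30, unadjusted p 0.000961 in edgeR) and stood at 0.60 in DRG (0.279). The remaining macrophage markers did not pass by unadjusted p in either ganglion. Among them, in TG and DRG, were Cd68 at 1.09 and 0.86, Fcgr1 at 0.66 and -1.05, and Lyz2 at 0.13 and -0.13.

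Reads of Cd74 and of the I-A chains were also set against those of the macrophage markers, without a test. Per 100 reads of Csf1r there were 157 to 275 reads of Cd74 in female and 127 to 279 in male libraries, and per 100 reads of C1qa 368 to 508 and 318 to 471, so the sexes overlapped. H2-Aa had 222 to 378 reads per 100 of Csf1r in females and 346 to 1014 in males, with a narrow overlap, and H2-Ab1 had 89.5 to 174 and 117 to 399, with a wider one. The part of macrophage number or state in the Cd74 difference was not tested.

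Other cell types were also measured. The 5 B cell markers listed in the files summed to at most 5.36 CPM in any library and to 0 in 4 of the TG libraries, with Cd79a at 11 counts or fewer and Cd79b at 20 or fewer. The 7 dendritic cell markers summed to 23.6 to 53.5 CPM in female TG, 52.7 to 56.9 in male TG, 41.4 to 49.6 in female DRG and 42.8 to 44.1 in male DRG, and the 5 T cell markers to at most 7.66 CPM. Flt3 and Zbtb46 made up most of the dendritic sum, and 0 of 5 tested dendritic markers passed in TG and 0 of 4 in DRG. Endothelial markers, 5 genes, summed to 230 to 462 CPM in female DRG and 144 to 263 in male DRG, with 4 of 5 higher in females by unadjusted p, and in TG 1 of 5 was higher. Fibroblast markers were higher in females by unadjusted p for 2 of 5 genes in each ganglion. Of 5 Schwann cell markers 3 were higher and 1 lower in female TG, with a median log2 fold change of 1.01. In DRG 1 was higher and 0 lower, with a median of 0.53. Of 5 satellite glia markers 1 was higher and 1 lower in TG (median 0.20), and 0 higher and 1 lower in DRG (median 0.08). Among all genes 10.9% in TG and 3.85% in DRG were higher in females by that rule, and 9.79% and 8.0% were lower. The sensory neuron sum was 4680 to 7410 CPM in female TG and 5550 to 8700 in male TG, and 5410 to 8780 in female DRG and 8380 to 11400 in male DRG. The part of these cell types in the class II values was not tested.

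**Figure D4:**
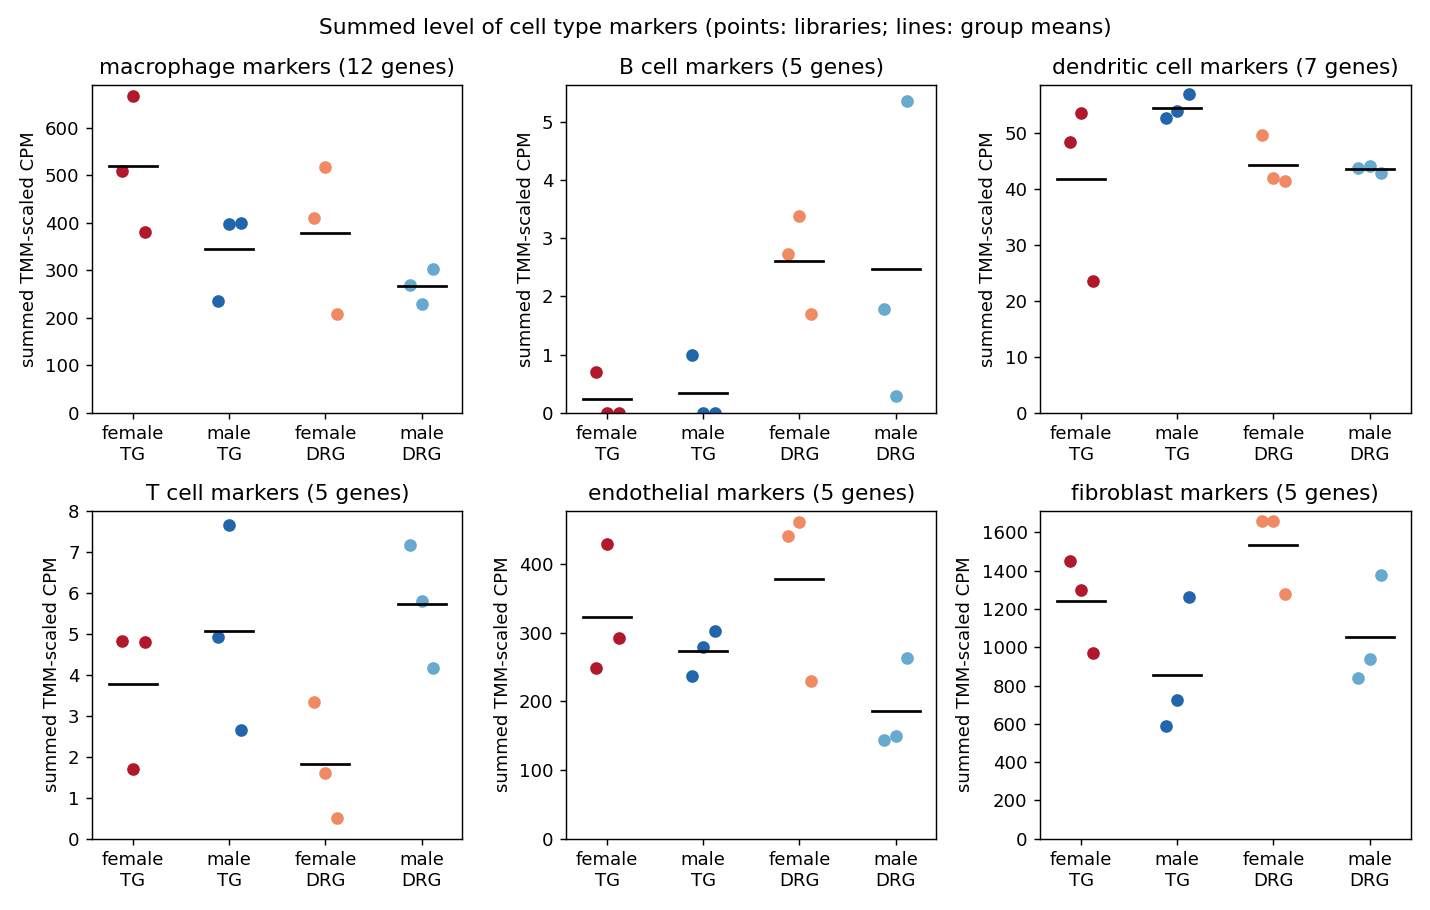
Summed TMM-scaled CPM of marker genes of 6 cell types (vertical axes, each from 0) by sex and ganglion, with 1 point per library and lines at the group means. The macrophage sum was 381 to 667 CPM in female TG and 235 to 400 in male TG, and the B cell sum stayed at or below 5.36 CPM in all 12 libraries.

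A correction for GC content and exon length raised most of the differences of the chain genes. With it, the log2 fold change of Cd74 was 1.16 in TG and 1.39 in DRG (unadjusted p 0.0129 and 0.000451). H2-Aa rose to 0.71 in TG (unadjusted p 0.0177) and 0.62 in DRG, H2-Ab1 stood at 0.79 and 0.91 (unadjusted p 0.00971 and 0.02), and H2-Eb1 stood at 0.47 in TG and 1.14 in DRG (unadjusted p 0.0032). H2-Aa has the lowest GC content of these 4 genes at 49.4%, and Cd74 the highest at 56.6%. The number of genes called in the average over ganglia fell from 1169 to 170 with the correction, and Cd74 was still past the threshold at an adjusted p of 0.0351.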

How the data were processed

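RNA depleted of ribosomal RNA was made into strand-marked libraries and sequenced as single reads of 50 bases, and the authors aligned the reads to mm9 with TopHat2 and counted them per gene symbol with HTSeq. The deposited files hold these raw read counts per gene with no normalization, and 5 summary lines that are not genes were left out. The strand setting and the annotation used for counting are not given in the sources used here. Alignments that were not unique, 13195420 to 21206143 per library, were not counted, and a read can give several of them. The labels' titles gave sex, ganglion and number, and 95.7% of the 22609 symbols matched the GENCODE annotation of mm9, from which exon length and GC content were taken.

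The quasi-likelihood test of edgeR 4.0.16 in R 4.3.3 was fitted to all genes kept by filterByExpr, with TMM scaling and Benjamini-Hochberg adjustment over all genes tested. It used the 6 libraries of a ganglion for each sex comparison and all 12 for the others, and log2 CPM used a prior count of 2. Nothing states that libraries came from separate animals, so p-values measure the spread between these libraries. Permutation tests were two-sided, with 100000 resamples over 12 libraries and exact within a ganglion. DESeq2 1.42.0 and the other settings of the closing section were alternatives, and each fit was tested on simulated data. The named genes were all members, up to 4 genes of smallest unadjusted p in each pathway list, genes set against a member by role, and the 10 genes most like the mean of Cd74, H2-Aa, H2-Ab1 and H2-Eb1 with a mean of at least 1 CPM. Lyz2, C1qc, Cd68, Fcgr1, Cd86, Cd80, H2-K1 and the ranks of Cx3cr1, Csf1r and Cldn5 were added for their role or after their values were seen. The members and lists were chosen with earlier results of these data known. Sppl2a, Ighm and Ly6g were not found in the files.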

Additional observations from a re-analysis of the deposited data

How the results depend on the processing

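Cd74 was higher in females under every alternative in TG (log2 fold change 1.07 to 1.64 with 1 library left out), in DRG (0.87 to 1.41) and in the average (1.06 to 1.38). The depth of the low members (Ciita, H2-Ob, H2-Oa and H2-DMb2) limits any statement on them. Library totals in place of TMM factors moved the median of all genes to 0.16 in TG, 0.19 in DRG and 0.17 in the average, and the same number of members, 7 in each, lay above it as with TMM factors. The cause of the changes below was not tested.

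Counts of members are given with the number of all genes passing in the same fit. Members meeting the criteria in TG numbered 1 (1038 genes), 2 with a fold change above 1.5 (2718 genes), and 1 to 3 with 1 library left out, the 3 without male TG 2 (867 genes). In DRG they numbered 1 (694 genes), 2 with the GC content and length correction (407), 2 with that correction and the replicate block (382), 2 in one model of 12 libraries (868), and 0 to 2 with 1 library left out, the 2 without female DRG 3 (1585). In the average they numbered 1 (749), 2 with DESeq2 (881) and 1 to 2 with 1 library left out, the 2 without female DRG 3 (1390). By adjusted p there was 1 member with DESeq2 in TG (817) and 1 in DRG (348), and 0 to 2 in TG, the 2 without female TG 3 (3394), and 0 in DRG with 1 library left out. In the average there was 1 (1169), 2 with library totals (1419), 2 with DESeq2 (2324), 0 with both ganglia summed per sex and number (6), and 0 to 3 with 1 library left out, the 3 without female DRG 3 (2487). For TG against DRG Cd74, H2-Ab1 and H2-Eb1, 3 members, passed with the replicate block and the correction together (672). Of 9 correlations with Cd74 4 passed over 12 libraries, 0 passed within DRG after adjustment, and 4 to 5 passed with 1 library left out. For correlations the number of all genes passing was not computed.

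The replicate numbers were not taken to pair the samples, since same-numbered deviations did not all correlate above 0.1. Their r was 0.032 to 0.168 between female and male DRG, where each sample correlated best with its own number, and -0.098 to 0.01 between female and male TG. Between TG and DRG r was 0.028 to 0.212 in females and 0.043 to 0.216 in males, all positive, with means of 0.119 and 0.125 against -0.061 for different numbers in both, so a shared source of TG and DRG libraries was not tested. With the replicate block alone Cd74 had log2 fold changes of 1.41 in TG and 1.04 in DRG, and 1 member met the criteria in each. The block alone took the unadjusted p of H2-Eb1 in DRG to 0.0326, and for TG against DRG those of H2-Aa and H2-Eb1 to 0.00673 and 0.00984, while over all genes the TG against DRG calls went from 143 to 562. In DRG the block turned H2-DMb1 to -0.02 and Ciita to -0.65, the correction turned Ciita to -0.16, and both together turned it to -0.88. In the difference of the sex effects, the correction turned Cd74 to -0.29, H2-Ab1 to -0.17 and H2-DMa to -0.01, and with the block Cd74 was at -0.10 and H2-Ab1 at -0.05.

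With 1 library left out, signs turned within -1.39 to 0.02 for H2-Ob in TG. In DRG they turned within -0.06 to 0.51 for H2-Aa, -0.07 to 1.02 for H2-DMa, -0.38 to 0.37 for H2-DMb1 and -1.34 to 0.82 for Ciita. Ciita ran from -0.21 to 1.54 in the average and from -0.04 to 1.67 for TG against DRG, and H2-DMb1 from -0.12 to 0.25 for TG against DRG. In the difference of the sex effects Cd74 ran from -0.09 to 0.52, H2-Aa from -0.17 to 0.40, H2-Ab1 from -0.14 to 0.52 and H2-DMa from -0.26 to 0.82. Over all member values and alternatives 618 kept direction and side of the threshold, 49 newly passed, 16 no longer passed and 29 turned.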
